A study of Danio rerio with 21 samples.

Results

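The genes described here are 40 zebrafish genes for glutamate receptors, chosen by their Ensembl gene names from the 32057 genes counted in every library. They comprise 27 genes for ionotropic receptors and 13 for metabotropic receptors. The ionotropic genes fall into 8 of the AMPA class, 11 of the NMDA class, 6 of the kainate class and 2 of the delta class. The metabotropic genes fall into 4 of group I, 3 of group II and 6 of group III. They were chosen by name, without a cut-off on a measured value, but with earlier results of these data known.

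The question was whether chronic gamma irradiation of adult fish of the AB strain, from a 137Cs source, altered gene expression in the telencephalon, the front part of the brain. All 21 libraries were made at day 36 and each was a pool of telencephalons from several fish, with males and females balanced within each condition, so that differences between single fish cannot be seen. Batch 1 held 3 untreated control pools, 3 pools exposed to 0.5 mGy/h and 3 pools exposed to 5 mGy/h. Batch 2 held 6 untreated control pools and 6 pools exposed to 0.05 mGy/h. All fish were of this strain without a further allele, and irradiation was the only treatment named for any group.

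Glutamate is the main excitatory transmitter of the vertebrate brain. AMPA, NMDA and kainate receptors are ion channels assembled from several subunits that open when glutamate binds: AMPA receptors carry most fast excitation, NMDA receptors admit calcium and are needed for many forms of synaptic plasticity, and kainate receptors act on both sides of the synapse. Delta receptors organise synapses rather than act as classical glutamate-gated channels. Metabotropic receptors signal through G proteins: group I excites through phospholipase C, while groups II and III lower cyclic AMP and mostly restrain transmitter release. Teleost fish often carry duplicates of a mammalian gene, marked a and b. Roles given below for single subunits are those known for the mammalian counterparts.

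Between 19.0 M and 71.6 M reads (M, mega) were counted on genes per library, with group medians of 23.8 M at 0.05 mGy/h, 33.2 M in the controls of batch 2, 46.4 M at 5 mGy/h, 53.6 M at 0.5 mGy/h and 60.8 M in the controls of batch 1. At these depths 3 counts correspond to 0.0419 to 0.158 CPM (read counts scaled by library size to a common total), which was taken as the limit that a count of 0 allows, for counting error only. The telencephalon label was checked with 6 of 9 listed markers that the files hold, whose summed level lay between 439.8 and 681 CPM in all 21 libraries. This sum cannot show whether neighbouring tissue was included. In batch 1, pineal marker sums were 6.57 to 475 CPM in controls, 5.17 to 353 CPM at 0.5 mGy/h and 231 to 521 CPM at 5 mGy/h. Preoptic and hypothalamic sums were 27 to 338, 80.4 to 109 and 162 to 336 CPM. Cerebellum sums varied less, from 294 to 380.3 CPM over batch 1. A pair of libraries stood apart from their groups. Replicate 6 of the batch 2 controls had a mean correlation of log values of 0.817 with the other controls, against 0.942 to 0.948 for those, and replicate 1 of 5 mGy/h had 0.903 against 0.938 and 0.946. Values without either library are given below, singly or as ranges, for a part of the fold changes that leaving it out moved.

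The receptor genes were low in both libraries. In replicate 6 of the batch 2 controls, 24 of the 40 genes had their lowest level of the 6 controls (41.6% of all genes tested) and 7 their highest (43.3%). The median log2 ratio of this library to the median of its group mates was -0.66 over the receptor genes and 0.025 over all genes. In replicate 1 of 5 mGy/h, 21 of 39 genes had their lowest level of the 9 libraries of batch 1 (27.7%) and 5 their highest (28.9%), with median log2 ratios of -0.19 and 0.022. In both libraries the vesicular glutamate transporter gene slc17a6a, which marks glutamatergic neurons, was low as well, at 18.3 CPM in the control library against 432 to 505 CPM in its group mates and at 5.63 CPM in the exposed library against 112 to 365 CPM in the rest of batch 1. The summed level of all 4 glutamatergic markers was 184 CPM against 754 to 904 CPM and 212 CPM against 426 to 716 CPM. In the control library the summed level of 8 of 9 listed markers of the preoptic area and hypothalamus was 1374 CPM against 57.6 to 162 CPM in the other controls, that of 5 of 6 microglia markers 979 CPM against 330.4 to 423 CPM, and that of 3 of 7 radial glia markers 972 CPM against 384 to 504 CPM. Cerebellum markers summed to 573 CPM against 294 to 328 CPM, red blood cell markers to 342 CPM against 64.7 to 126 CPM and oligodendrocyte markers to 1268 CPM, also above each of the other controls. Sums for the pineal organ (126 CPM against 3.57 to 88.7 CPM), habenula (42.4 CPM against 19.5 to 25.3 CPM) and optic tectum (12.2 CPM against 5.38 to 8.5 CPM) were above as well. The endothelium sum was below, at 89 CPM against 99.4 to 111 CPM. In replicate 1 of 5 mGy/h, sums above those of the other 8 libraries of batch 1 included those of radial glia (778 CPM against 487 to 725 CPM), microglia (349 CPM against 239 to 327 CPM), cerebellum (380.3 CPM against 294 to 341 CPM) and red blood cells (211 CPM against 116 to 171 CPM). The telencephalon sum was barely above, at 681 CPM against 605 to 680.5 CPM. Markers of GABA neurons summed to 1138 CPM, below the 1165 to 1451 CPM of the others. The part of these cell types in the receptor levels was not tested. In bulk tissue, fewer cells of a type and less RNA per cell cannot be told apart.

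**Figure D1:**
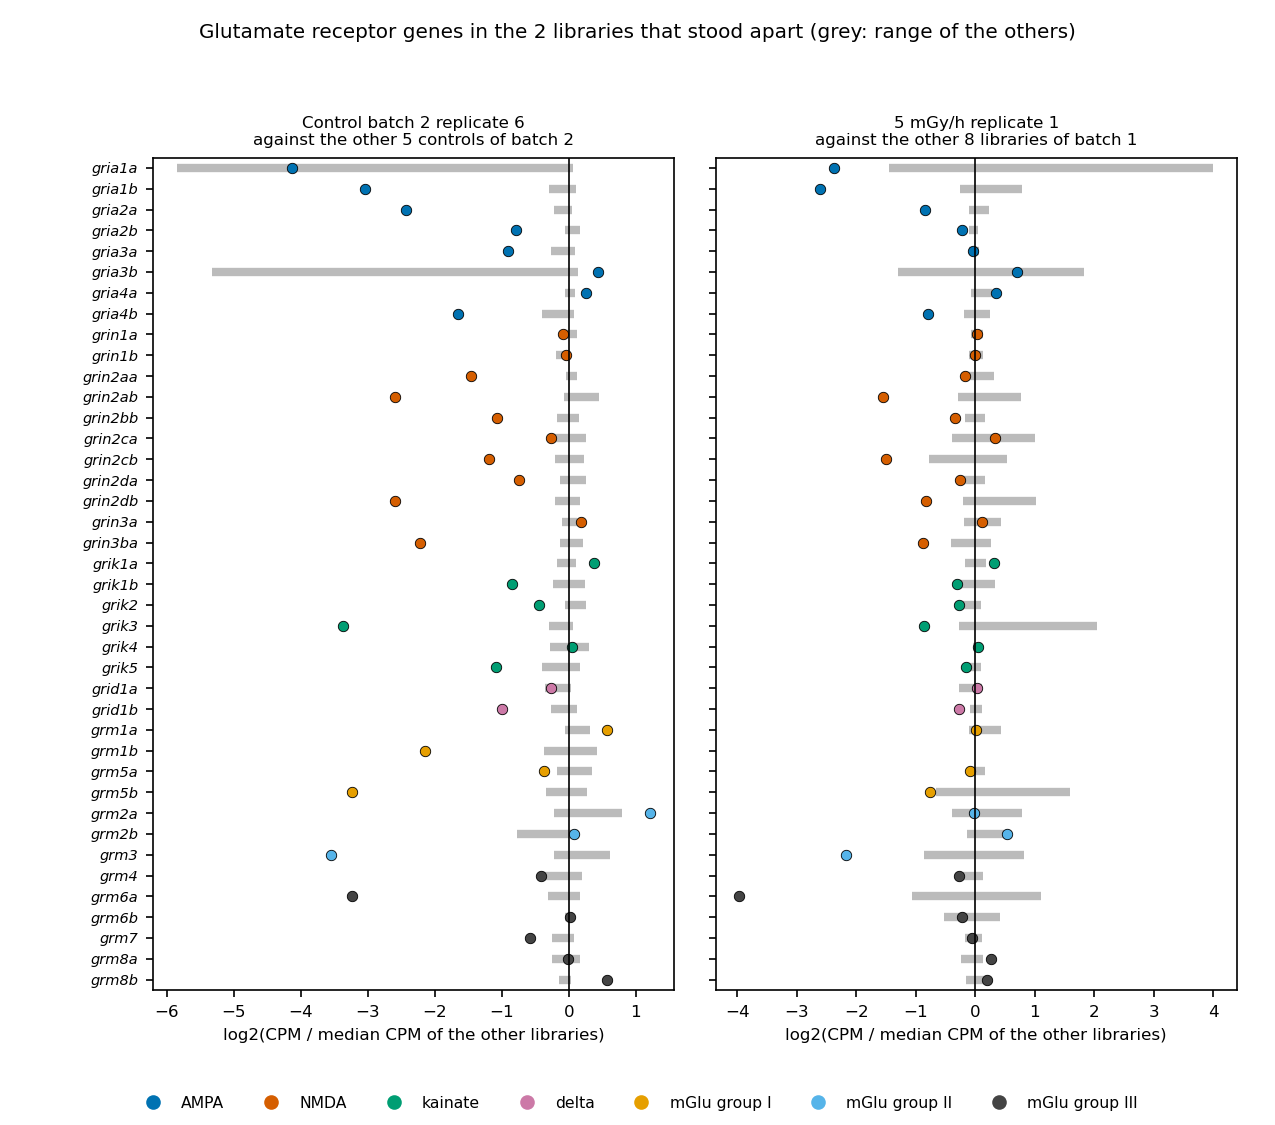
Level of each receptor gene (rows, coloured by class) in replicate 6 of the batch 2 controls (left) and replicate 1 of 5 mGy/h (right), as log2 of its CPM over the median of the other libraries of the set, with their range as a grey bar. In the left panel 24 points lie to the left of their bar and 7 to the right, and in the right panel 21 and 5.

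All 40 genes had at least 1 count in every library, but they differed in how far their levels ranged over the libraries. Of the 38 genes with more than 3 counts in every library, 14 varied by less than 2-fold between the lowest and the highest of the 21 libraries, 13 by 2- to 5-fold and 11 by 5-fold or more. These ranges span both batches and include both libraries that stood apart, so they do not measure the spread within a group. For gria1b the range was 21.8-fold, with replicate 1 of 5 mGy/h lowest, but batch 1 controls lay between 13.8 and 15.1 CPM. For gria3b the lowest was replicate 5 of the batch 2 controls. The steadiest included the obligatory NMDA subunits grin1a and grin1b. The other members, gria1a and grm1b, had 3 counts or fewer in some libraries, and the latter passed the count filter in batch 2 alone, so that the tests covered 39 members in batch 1 and 40 in batch 2.

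**Figure D2:**
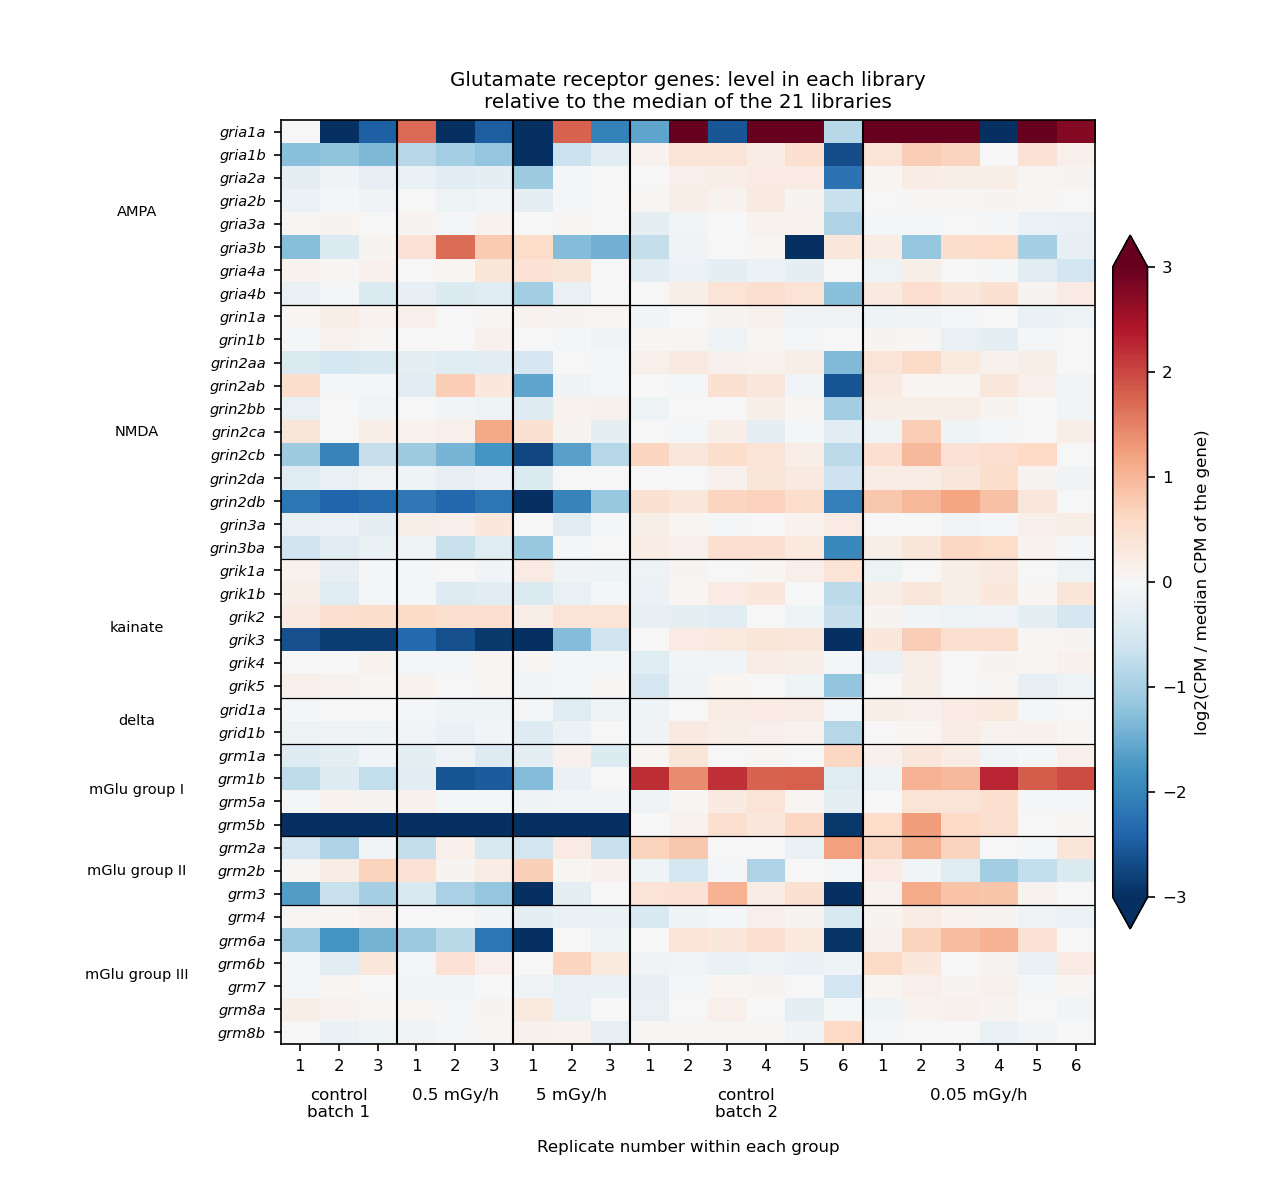
Level of each of the 40 receptor genes (rows, by class) in each of the 21 libraries (columns, by group and replicate), as log2 of its CPM over the median of that gene in the 21 libraries; colours stop at ± 3. Rows such as grin1a are nearly even, grm5b is low in all 9 libraries of batch 1 and in control replicate 6 of batch 2, and gria1a changes from library to library.

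No receptor gene passed the thresholds at any dose rate. A gene passed when its false discovery rate (FDR) was below 0.05 and its level differed by 1.5-fold or more, by edgeR's quasi-likelihood test over all genes with Benjamini-Hochberg adjustment. At 0.05 mGy/h 0 of 40 passed (0.00514% of all genes tested), at 0.5 mGy/h 0 of 39 (0.00469%) and at 5 mGy/h 0 of 39 (0.00469%). From the lowest to the highest dose rate, an unadjusted p under 0.05 was found for 1 member (4.26% of all genes), 2 members (2.37%) and 3 members (5.76%). DESeq2, used as an alternative, passed 0 receptor genes at each of the 3 dose rates. In the same order, the median log2 fold change over the members was 0.16, 0.021 and -0.0024, beside -0.0098, 0.011 and 0.028 over all genes. At 0.05 mGy/h 30 of 40 members had higher fitted values than controls (48.7% of all genes), and without control replicate 6 there were 28 (51.9%), with a median of 0.061 beside 0.0073 over all genes. Without that library 0 members passed (0.041%) and 3 had an unadjusted p under 0.05 (7.94%), namely gria2b, grin1a and grm6b. With replicate number as a block, 32 members were higher (51.2%) and 0 passed. At 0.5 mGy/h 23 of 39 were higher (53.2%) and at 5 mGy/h 19 of 39 (55.6%).

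**Figure D3:**
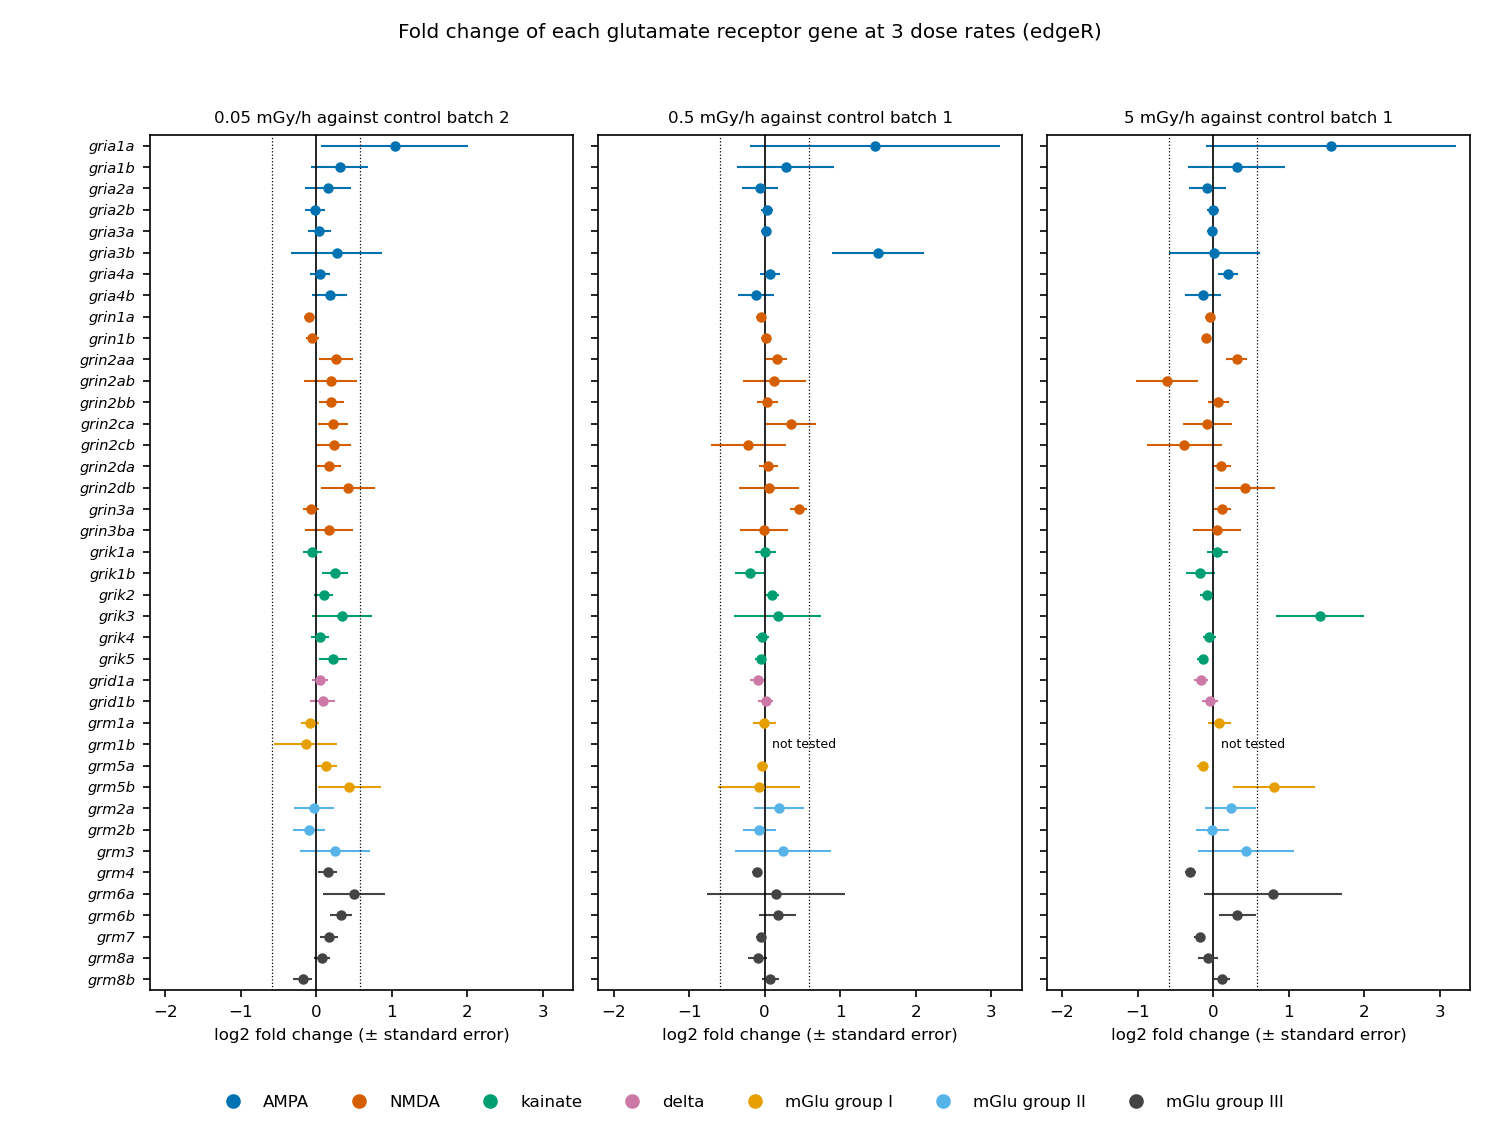
Log2 fold change with its standard error (horizontal axis) of each receptor gene (rows, coloured by class) at 0.05, 0.5 and 5 mGy/h against the controls of the same batch; dotted lines mark a fold change of 1.5 in either direction. The points lie mostly near 0, and none passed the FDR threshold; gria1a, gria3b at 0.5 mGy/h and grik3 at 5 mGy/h lie far from 0 with wide errors.

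Levels that did not overlap between groups were counted as a second view. At 0.5 mGy/h the 3 exposed pools lay all above or all below the 3 controls for 6 of 39 genes (11.1% of all genes), with 4 above, gria1b, gria3b, grin2aa and grin3a (4.23% of all genes were above), and 2 below, grid1a and grm4 (6.89%). At 5 mGy/h this held for 5 of 39 (8.92%), and all 5 lay below the controls (5.09% of all genes did): grik5, grid1a, grm4, grm5a and grm7. At 0.05 mGy/h, with 6 pools on each side, it held for 0 of 40 (0.894%). The lists at 0.5 and 5 mGy/h share their 3 control pools.

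Of the AMPA class, gria2b is the counterpart of the subunit that, once its RNA is edited, makes the channel nearly impermeable to calcium, and it gave most of the AMPA reads. It was at 1796, 1975 and 1869 CPM in the controls of batch 1, at 2011, 1814 and 1919 CPM at 0.5 mGy/h and at 1669, 1956 and 1996 CPM at 5 mGy/h. In batch 2 the controls ranged from 1270 to 2439 CPM (median 2169.9), with replicate 6 the lowest and the other 5 at 2109 CPM or more, and the pools at 0.05 mGy/h from 2024 to 2142 CPM (median 2067). The groups overlapped in each comparison. Its log2 fold changes were -0.013 (SE 0.131) at 0.05 mGy/h, 0.03 (SE 0.0847) at 0.5 mGy/h and -0.0024 (SE 0.0847) at 5 mGy/h, with edgeR FDR of 0.97, 1 and 1. Without control replicate 6 the value at 0.05 mGy/h was -0.12 (SE 0.0437, FDR 0.527).

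The AMPA subunit gene gria3b varied more between pools than the other members of its class apart from gria1a. It was at 20.4, 37.2 and 52.1 CPM in the controls of batch 1 and at 66.6, 158 and 84.7 CPM at 0.5 mGy/h, all above the controls. At 5 mGy/h it was at 72.6, 20.2 and 18.2 CPM. The log2 fold change at 0.5 mGy/h was 1.5 (SE 0.612, unadjusted p = 0.0395, edgeR FDR 1), and leaving out the replicate at 158 CPM took it to 1.05 (unadjusted p = 0.144 by edgeR). Unexposed pools of batch 2 spread as well, with 5 controls between 29.9 and 62.1 CPM and replicate 5 at 1.14 CPM.

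In mammals GluA1, the product of the counterpart of gria1a and gria1b, is a subunit whose delivery to synapses underlies much of long-term potentiation. The gene gria1a was near the limit of detection in some pools and clearly present in others. In the controls of batch 2 it was at 5.16, 5.01 and 5.21 CPM in replicates 2, 4 and 5 and at 0.173, 0.0867 and 0.287 CPM in replicates 1, 3 and 6. At 0.05 mGy/h 5 pools held 3.47 to 11.2 CPM and replicate 4 held 0.0342 CPM, a single count. In batch 1 replicate 1 of the controls was at 0.514 CPM, replicate 1 of 0.5 mGy/h at 1.66 CPM and replicate 2 of 5 mGy/h at 1.76 CPM, and the other 6 pools held 1 to 6 counts each. The fitted log2 fold changes of 1.04 (SE 0.972), 1.46 (SE 1.66) and 1.56 (SE 1.65) had edgeR FDR of 0.762, 1 and 0.994. The direction rested on single pools: without replicate 1 of 0.5 mGy/h the value there was -1.58, and without replicate 2 of 5 mGy/h it was -1.54, while without control replicate 1 they were 3.10 and 3.21. Within each batch high and low pools occurred in both control and exposed groups.

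Its duplicate gria1b had no such pools apart from the libraries that stood apart. It was at 14.6, 15.1 and 13.8 CPM in the controls of batch 1, at 19.5, 17.2 and 15.7 CPM at 0.5 mGy/h and at 2.69, 22.5 and 28.3 CPM at 5 mGy/h. Over all 3 pools of 5 mGy/h the log2 fold change was 0.31 (SE 0.644, edgeR FDR 0.997). Without replicate 1 it was 0.81 (SE 0.125, edgeR FDR 0.00904), a call made from 2 exposed pools. The remaining AMPA genes gria2a, gria3a, gria4a and gria4b had log2 fold changes between -0.13 and 0.20 at the 3 dose rates. Without replicate 1 they lay between -0.013 and 0.19 at 5 mGy/h, and without control replicate 6 between -0.077 and 0.085 at 0.05 mGy/h.

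Of the NMDA class, grin1a and grin1b encode the glycine-binding GluN1 subunit that every NMDA receptor contains. The former was at 2145, 2347 and 2191 CPM in the controls of batch 1, at 2293, 2051 and 2087 CPM at 0.5 mGy/h and at 2209, 2158 and 2133 CPM at 5 mGy/h. In batch 2 it ranged from 1917 to 2229.6 CPM in the controls (median 2000.0) and from 1787 to 2053 CPM at 0.05 mGy/h (median 1906). The groups overlapped throughout, and replicate 6 of the batch 2 controls, at 1919 CPM, was not apart for this gene. Log2 fold changes were -0.099 (SE 0.069) at 0.05 mGy/h, -0.052 (SE 0.064) at 0.5 mGy/h and -0.038 (SE 0.064) at 5 mGy/h, with edgeR FDR of 0.75, 1 and 0.996.

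The gene grin3a encodes GluN3A, which lowers the calcium flow through NMDA receptors and is most used in young mammalian neurons. It had the smallest p of all members at 0.5 mGy/h. Controls were at 13.9, 14.2 and 13.1 CPM and the exposed pools at 18.2, 17.9 and 20.2 CPM, with no overlap. The log2 fold change was 0.45 (SE 0.115, unadjusted p = 0.00416, edgeR FDR 1), rank 30 of the 21307 genes tested. At 5 mGy/h it was at 16.1, 13 and 15.6 CPM, overlapping with the controls, and the log2 fold change was 0.12 (SE 0.115, FDR 0.994), or 0.058 without replicate 1. In batch 2 controls ranged from 15.8 to 19.2 CPM (median 17.2) and pools at 0.05 mGy/h from 15.1 to 18.5 CPM (median 16.1), with a log2 fold change of -0.065 (SE 0.107, FDR 0.815), or -0.037 without control replicate 6. The controls of batch 1 lay below all 6 controls of batch 2, and the pools at 0.5 mGy/h lay within or just above the range of the latter. Across batches, batch, fish and preparation cannot be told apart, so these levels do not bear on the change within batch 1.

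Of the GluN2 genes, which set the kinetics of the channel, grin2aa had the smallest p at 5 mGy/h. It was at 19.4, 18.4 and 19.1 CPM in the controls of batch 1, at 22, 20.4 and 21.2 CPM at 0.5 mGy/h and at 18.5, 26.0 and 25.7 CPM at 5 mGy/h. The pools at 0.5 mGy/h lay above the controls and those at 5 mGy/h overlapped because of replicate 1. The log2 fold change at 0.5 mGy/h was 0.16 (SE 0.138). At 5 mGy/h it was 0.31 (SE 0.138, FDR 0.865), and without replicate 1 it was 0.45 (SE 0.0649, edgeR FDR 0.00757), under a fold change of 1.5. The other 7 GluN2 and GluN3 genes, namely grin2ab, grin2bb, grin2ca, grin2cb, grin2da, grin2db and grin3ba, had log2 fold changes from -0.61 to 0.42 at the 3 dose rates and none passed. The lowest, of grin2ab at 5 mGy/h, came from pools at 20.1, 54.8 and 59.1 CPM, of which the first was replicate 1, and without it the value was -0.26 (SE 0.295, edgeR FDR 0.649). Without that library the 7 genes lay between -0.28 and 0.76 at 5 mGy/h, the highest being grin2db (edgeR FDR 0.103), and without control replicate 6 between -0.03 and 0.20 at 0.05 mGy/h.

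Of the kainate class, grik2 encodes one of the low-affinity subunits that can form a channel alone. It was at 127, 147 and 150.4 CPM in the controls of batch 1, at 157, 147 and 148 CPM at 0.5 mGy/h and at 121, 139 and 139.7 CPM at 5 mGy/h. The log2 fold changes of grik2 were 0.097 (SE 0.128; 0.02 without control replicate 6) at 0.05 mGy/h, 0.099 (SE 0.0906) at 0.5 mGy/h and -0.08 (SE 0.0906; -0.021 without replicate 1) at 5 mGy/h, with overlap between groups in each.

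The related gene grik3 had the largest shift of its class. It was at 5.03, 4.30 and 4.33 CPM in the controls of batch 1, at 6.14, 5.02 and 4.15 CPM at 0.5 mGy/h and at 2.77, 12.6 and 20.7 CPM at 5 mGy/h. Replicate 1 lay below all controls and the other exposed pools above them. The log2 fold change at 5 mGy/h was 1.41 (SE 0.582, unadjusted p = 0.0415, edgeR FDR 0.838), and without replicate 1 it was 1.87 (SE 0.238, FDR 0.00566). Without replicate 3 it was 0.74 (unadjusted p = 0.213 by edgeR). The transporter gene slc17a6a had the same order of the exposed pools, at 5.63, 281 and 365 CPM against 140.1, 150.2 and 123 CPM in the controls. In batch 2 slc17a6a was at 415 CPM or more in all libraries but control replicate 6. Of the other glutamatergic markers, slc17a7a had this order at 5 mGy/h as well (45.8, 123 and 132 CPM). Both slc17a6b (160.1, 256 and 216 CPM) and slc17a7b (0.405, 4.39 and 3.26 CPM) were highest in replicate 2. The part of these markers in the level of grik3 was not tested. The genes grik4 and grik5 encode high-affinity subunits that need a low-affinity partner. The latter was at 42.1, 40.8 and 39.8 CPM in the controls and at 35.7, 36.4 and 38.9 CPM at 5 mGy/h, all below the controls, and its log2 fold change of -0.14 (SE 0.0737, FDR 0.914) did not pass. At 0.05 mGy/h grik1b had a log2 fold change of 0.25 (SE 0.176, FDR 0.75), and 0.14 (SE 0.108, edgeR FDR 0.78) without control replicate 6, the lowest control at 3.4 CPM. The values of grik1a, grik1b and grik4 lay between -0.20 and 0.25 at the 3 dose rates. Without replicate 1 they lay between -0.083 and -0.078 at 5 mGy/h, and without control replicate 6 between 0.012 and 0.14 at 0.05 mGy/h.

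Of the delta class, grid1b was at 41.0, 42.8 and 41.7 CPM in the controls of batch 1, at 43.2, 39.8 and 43.1 CPM at 0.5 mGy/h and at 35.1, 40.4 and 45.7 CPM at 5 mGy/h, with overlap in both comparisons. In batch 2 grid1b was at 25.4 to 54.8 CPM in the controls and at 46.3 to 53.7 CPM at 0.05 mGy/h. The log2 fold changes of grid1b were 0.087 (SE 0.163) at 0.05 mGy/h, 0.011 (SE 0.105) at 0.5 mGy/h and -0.046 (SE 0.105) at 5 mGy/h. Its duplicate grid1a lay below the controls at 26.9, 28.1 and 27.7 CPM both at 0.5 mGy/h, with 26.6, 25.3 and 25.5 CPM, and at 5 mGy/h, with 26.7, 21.6 and 25.4 CPM. The differences were small, with log2 fold changes of -0.091 (SE 0.0969) and -0.16 (SE 0.0969) and edgeR FDR of 1 and 0.949. Without control replicate 6 both delta genes lay between -0.04 and 0.017 at 0.05 mGy/h.

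**Figure D4:**
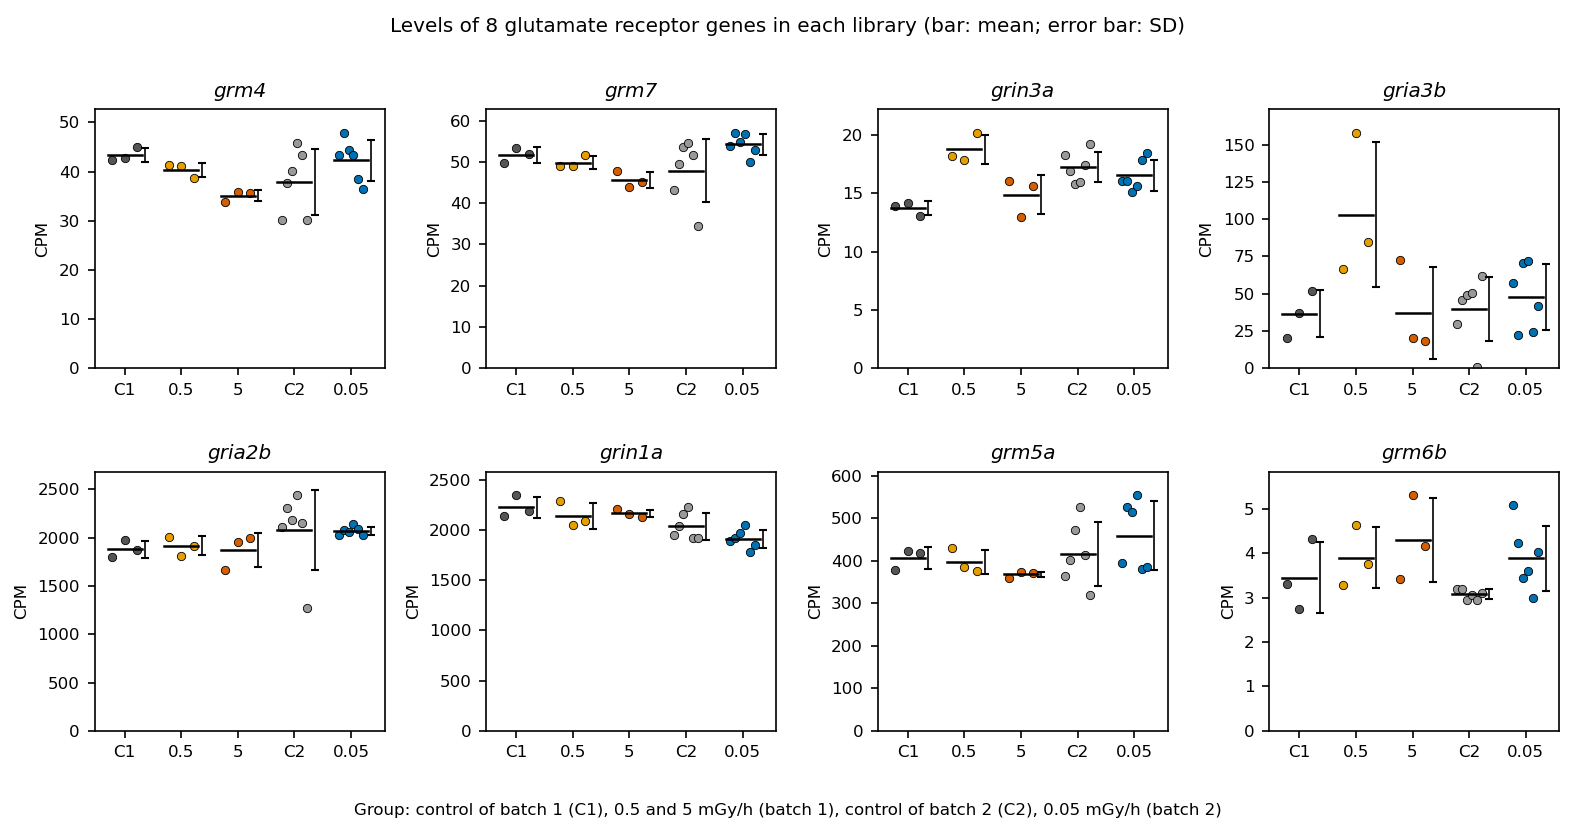
CPM of 8 receptor genes (panels) in each library, by group, with the mean as a bar and the SD as an error bar. For grm4 the 3 pools at 5 mGy/h lie between 33.9 and 35.8 CPM, below the controls of batch 1 at 42.4 to 45.1 CPM and within the range of the controls of batch 2, 30.1 to 45.9 CPM.

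The metabotropic genes of group III, receptors that sit mostly on nerve endings, held the smallest p at 5 mGy/h. The gene grm4 was at 42.4, 42.8 and 45.1 CPM in the controls of batch 1, at 41.3, 41.1 and 38.7 CPM at 0.5 mGy/h and at 33.9, 35.8 and 35.7 CPM at 5 mGy/h. The 3 groups did not overlap. The log2 fold change at 5 mGy/h was -0.30 (SE 0.0712, unadjusted p = 0.00265, edgeR FDR 0.807), and at 0.5 mGy/h it was -0.10 (SE 0.0712, FDR 1). The value at 5 mGy/h remained between -0.34 and -0.27 when each library in turn was left out, and without replicate 1 of 5 mGy/h, at -0.28 (SE 0.0574), the edgeR FDR was 0.0245, under a fold change of 1.5. DESeq2 gave -0.32 with an adjusted p of 0.0436. In batch 2 the controls ranged from 30.1 to 45.9 CPM (median 38.9) and the pools at 0.05 mGy/h from 36.5 to 47.9 CPM (median 43.4). All 3 pools at 5 mGy/h lay within this control range, but batch, fish and preparation cannot be told apart across batches. The log2 fold change at 0.05 mGy/h was 0.15 (SE 0.129, edgeR FDR 0.752).

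The second gene of group III, grm7, was at 49.7, 53.5 and 52.0 CPM in the controls of batch 1, at 49.0, 49.0 and 51.6 CPM at 0.5 mGy/h and at 47.8, 44.0 and 45.1 CPM at 5 mGy/h, where all pools lay below the controls. Its log2 fold change there was -0.18 (SE 0.0684, unadjusted p = 0.0295, edgeR FDR 0.811), and at 0.5 mGy/h it was -0.051 (SE 0.0683). In batch 2 the controls ranged from 34.6 CPM in replicate 6 to 54.7 CPM (median 50.6) and the pools at 0.05 mGy/h from 50.1 to 57.1 CPM (median 54.4), with a log2 fold change of 0.17 (SE 0.119, FDR 0.75) that was 0.09 (SE 0.0659, edgeR FDR 0.758) without replicate 6.

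The retinal receptor genes grm6a and grm6b, whose mammalian counterpart serves ON bipolar cells, and the grm8 duplicates complete group III. At 5 mGy/h grm6a was at 0.149 CPM in replicate 1 and at 4.6 and 5.0 CPM in the other pools. Its log2 fold change there was 0.79 (SE 0.914, edgeR FDR 0.994), and 1.34 without replicate 1. Without control replicate 6 the genes of group III lay between -0.075 and 0.33 at 0.05 mGy/h. At 0.05 mGy/h grm6b was the one member with an unadjusted p under 0.05. Its controls lay closely together, from 2.95 to 3.20 CPM, and the exposed pools were at 5.08, 4.22, 3.43, 3.59, 2.98 and 4.03 CPM, of which 1 fell within the controls' range. The log2 fold change was 0.33 (SE 0.149, unadjusted p = 0.0458, edgeR FDR 0.75), and with replicate number as a block it was 0.31 (unadjusted p = 0.0673 by edgeR), so that 0 members remained under an unadjusted p of 0.05 (4.56% of all genes). In the unexposed pools of batch 1 this gene spread from 2.74 to 4.31 CPM. For grm8b the value at 0.05 mGy/h was -0.18 (SE 0.122, FDR 0.75), with control replicate 6 at 68.9 CPM and the other controls at 42.0 to 47.5 CPM, and without that library it was -0.075 (SE 0.0617, edgeR FDR 0.788).

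Of group I, whose receptors are mainly postsynaptic, grm5a was at 378, 424 and 419 CPM in the controls of batch 1, at 429, 385 and 376 CPM at 0.5 mGy/h and at 360.3, 373 and 370.3 CPM at 5 mGy/h. The pools at 5 mGy/h lay below the controls, by a log2 fold change of -0.14 (SE 0.0744, edgeR FDR 0.917). Its duplicate grm5b was near 1 CPM in batch 1, from 0.491 to 2.51 CPM, and its log2 fold changes of -0.076 and 0.81 did not pass. Of group II, grm2b was at 122, 138 and 188 CPM in the controls of batch 1 and at 194, 122 and 129.7 CPM at 5 mGy/h, a spread that covers its log2 fold changes of -0.071 (SE 0.216) at 0.5 mGy/h and -0.0087 (SE 0.216) at 5 mGy/h, the latter -0.25 (SE 0.179) without replicate 1. In batch 2 grm2b was at 62.9 to 119 CPM in the controls and at 57.8 to 142 CPM at 0.05 mGy/h. The log2 fold change there was -0.095 (SE 0.217, edgeR FDR 0.858). The genes grm1a, grm1b, grm2a and grm3 did not pass at any dose rate at which they were tested. For grm3 the log2 fold change at 5 mGy/h was 0.44 (SE 0.636, edgeR FDR 0.994), and 0.92 without replicate 1. Without that library the tested genes of group I lay between -0.13 and 1.2 at 5 mGy/h. Without control replicate 6, values at 0.05 mGy/h lay between -0.31 and 0.21 in group I and between -0.061 and 0.16 in group II.

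Summed over each class, the levels of control and exposed pools overlapped for every class except group III at 5 mGy/h. The sums are used to compare libraries, not classes, since the counts were not scaled by transcript length. The AMPA sum was 2268 CPM ± 111 (SD, n = 3) in unexposed pools of batch 1, 2366 CPM ± 68.1 at 0.5 mGy/h and 2258 CPM ± 218 at 5 mGy/h. The NMDA sum was 3496 CPM ± 156, 3449.9 CPM ± 140.3 and 3432 CPM ± 122. The group III sum was 177 CPM ± 1.94 in the controls, 173 CPM ± 2.48 at 0.5 mGy/h and 167 CPM ± 7.39 at 5 mGy/h, where all pools were at 159.7 to 174 CPM and all controls at 175 to 179 CPM. Among single genes, 8.92% of all genes tested did not overlap between these groups, and 5.09% lay below the controls. No such share was computed for sums of several genes. The genes grm4 and grm7, already counted above as lying below the controls, are part of this sum. Of the 6 genes of group III, 3 had higher and 3 had lower fitted values at 5 mGy/h than controls. In batch 2 the AMPA sum was 2502 CPM ± 518 (SD, n = 6) in the controls and 2546 CPM ± 67.1 at 0.05 mGy/h. The control mean includes replicate 6 at 1489 CPM, while the other controls were at 2509 to 2947 CPM. The medians had the opposite order, with 2646 CPM in the controls and 2539 CPM at 0.05 mGy/h. The mean group III sum was 174 CPM (155 to 189 CPM) in these controls and 184 CPM (173 to 197 CPM) at 0.05 mGy/h. This difference was opposite in direction to that at 5 mGy/h.

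The exposed groups were also compared with each other. Between 5 and 0.5 mGy/h 0 of 39 members passed (0.00469%), 3 had an unadjusted p under 0.05 (5.24%) and DESeq2 passed 0. These 3 were grin3a at -0.33 (SE 0.115), grm4 at -0.20 (SE 0.0712) and gria3b at -1.48 (SE 0.612), with edgeR FDR of 0.919, 0.919 and 0.938. Fitted values were higher at 5 mGy/h for 21 members (56.3%). The 2 groups did not overlap for 5 members (9.25%), and in all 5 the pools of 5 mGy/h were the lower ones (4.92% of all genes), namely grin3a, grik2, grm4, grm5a and grm7. The changes at 0.5 and 5 mGy/h were each set against the change at 0.05 mGy/h by an interaction contrast in 1 fit of all 21 libraries. Of 40 members 0 passed for either dose rate (0.0% of all genes), and DESeq2 passed 0. The difference was above 0 for 13 members at 0.5 mGy/h (54.0% of all genes) and for 16 members at 5 mGy/h (59.2%). An unadjusted p under 0.05 was found for 1 member at 0.5 mGy/h (2.03%), grin3a with a difference of 0.51 (SE 0.155, FDR 1), and for 2 at 5 mGy/h (4.42%), grm4 with -0.47 (SE 0.182) and grm7 with -0.36 (SE 0.164), both at an edgeR FDR of 0.879.

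Leaving out replicate 1 of 5 mGy/h altered the counts. Without it 2 of 39 members passed at 5 mGy/h, beside 6.34% of all genes, and both, grik3 and gria1b, were higher than in controls (6.11% of all genes). An FDR under 0.05 alone was reached by 4 members (9.13%), with grin2aa above and grm4 below the controls in addition. An unadjusted p under 0.05 was reached by 14 members (24.1%), and 21 members had higher fitted values than controls (49.9%). These counts rest on 2 exposed pools. Against 0.5 mGy/h, 2 members passed without it (5.47%), grik3 above with 1.70 (SE 0.237, FDR 0.0107; 5.23% of all genes were above) and gria3b below with -2.42 (SE 0.49, FDR 0.0278; 0.235%), and 4 had an FDR under 0.05 (7.13%). The list of markers of radial glia, of which 3 of 7 are in the files, summed to 487 to 586 CPM in the controls of batch 1, 591 to 651 CPM at 0.5 mGy/h and 679 to 778 CPM at 5 mGy/h, with no overlap. In each of the other marker lists some of these groups overlapped. At 0.05 mGy/h the radial glia sum was 319 to 500.2 CPM, overlapping with the 384 to 504 CPM of the batch 2 controls other than replicate 6. The part of radial glia in the receptor results was not tested.

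Further genes of glutamate receptor complexes were taken from a list of auxiliary subunits, scaffolds, delta ligands, RNA-editing enzymes and 3 more receptor genes, of which 49 are in the files. None passed at any dose rate, with 0 of 47 tested at 0.05 mGy/h (0.00514% of all genes) and 0 of 48 at 0.5 and 5 mGy/h (0.00469% for each), and an unadjusted p under 0.05 was found for 0 (4.26%), 1 (2.37%) and 5 (5.76%). At 5 mGy/h these 5 were the scaffold genes dlg4a, a PSD-95 gene, and shank2a, and genes annotated as the kainate partner neto1, the AMPA auxiliary subunit cacng5 and the editing enzyme adarb1, each 1 of 2 IDs that share the name. The gene dlg4a was at 7.18, 7.65 and 4.43 CPM in the controls and at 1.77, 57.8 and 105 CPM at 5 mGy/h, again with replicate 1 lowest. Its log2 fold change was 3.10 (SE 1.06, FDR 0.807), and without replicate 1 it was 3.66 (SE 0.322, edgeR FDR 0.00441). Without that library 6 of the 48 passed (6.34% of all genes), all higher than in controls (6.11%), and in 5 of them, dlg4a, the cacng5 gene, cacng4b, grin2ba and dlg2, replicate 1 was below all 3 controls.

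**Figure D5:**
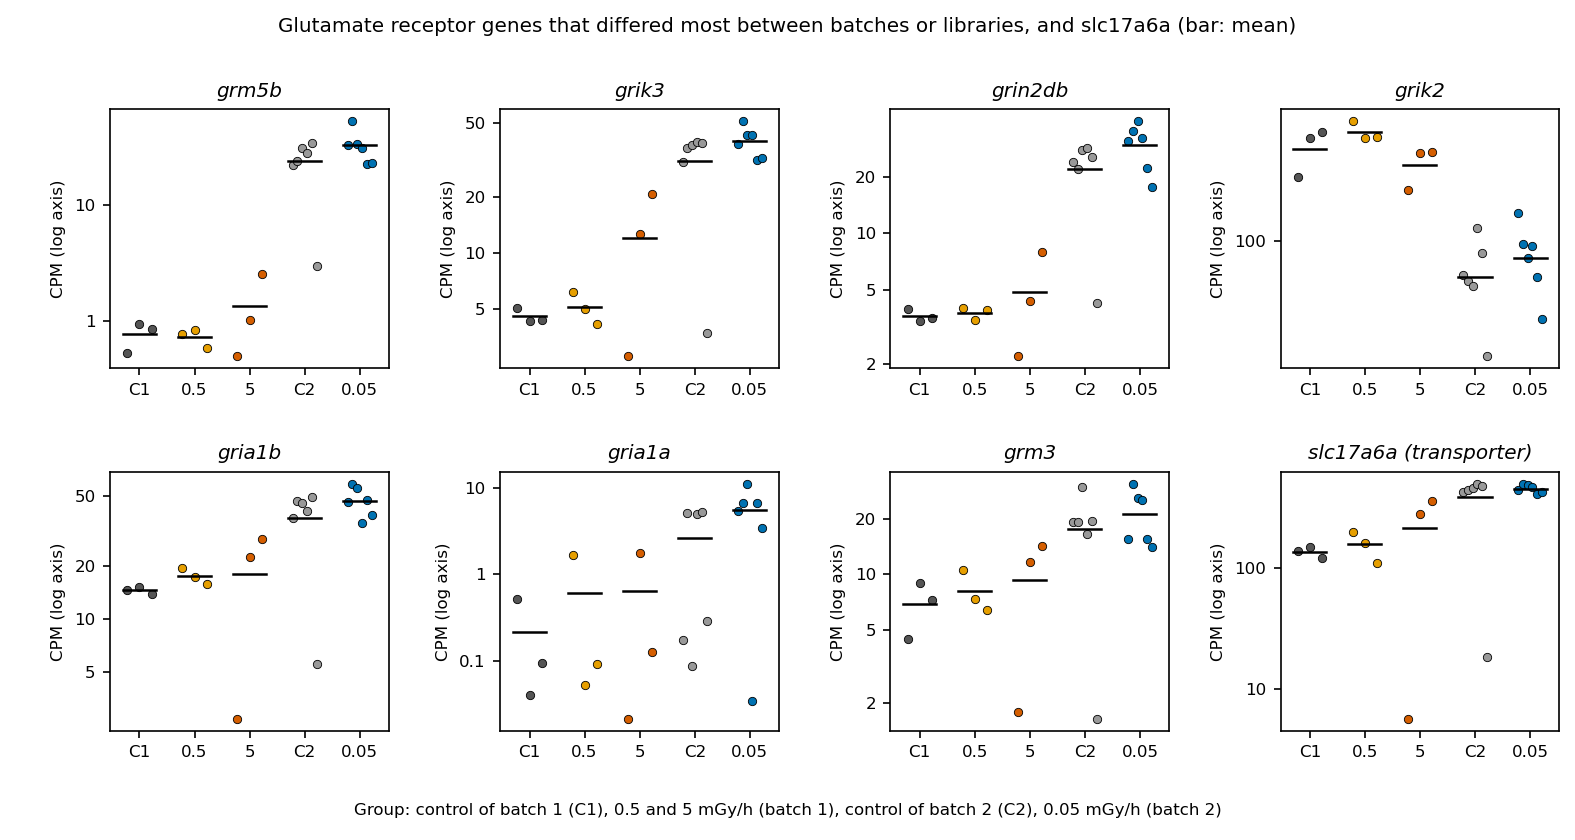
CPM on a log axis of 7 receptor genes and of the vesicular glutamate transporter gene slc17a6a in each library, by group, with the mean as a bar. For grm5b the 9 libraries of batch 1 lie at 2.51 CPM or less and 11 of the 12 libraries of batch 2 at 22.3 CPM or more, and for slc17a6a replicate 1 of 5 mGy/h and replicate 6 of the batch 2 controls are the lowest.

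The largest differences among the receptor genes were between unexposed pools of the 2 batches. Controls of batch 1 were compared with controls of batch 2 in a fit of all 21 libraries, a comparison added after the data had been seen. Of 40 members 6 passed, 1 higher and 5 lower in batch 1, beside 7.95% of all genes. Of the 21293 genes tested 552 passed as higher and 1140 as lower in batch 1. Batch, fish and preparation cannot be told apart in this contrast. The level of grm5b was 0.53, 0.928 and 0.843 CPM in batch 1, and in batch 2 it was 22.3, 23.8, 31.3, 28.2 and 34.2 CPM in replicates 1 to 5 and 2.99 CPM in replicate 6, with no overlap. Its log2 difference was -4.96 (SE 0.672, edgeR FDR 0.000299).

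The gene grin2db, for a GluN2D subunit with slow decay, was at 3.94, 3.41 and 3.53 CPM in batch 1 and at 24.0, 22.1, 27.7, 28.5, 25.5 and 4.22 CPM in batch 2, with a log2 difference of -2.60 (SE 0.481, FDR 0.00232 by edgeR). For grik3 the controls of batch 2 were at 31.1 to 39.8 CPM except replicate 6 at 3.69 CPM, which lay below those of batch 1, and the log2 difference was -2.79 (SE 0.595, FDR 0.00614). The single gene that was higher in batch 1 was grik2, at 127 to 150.4 CPM against 64.8 to 105 CPM, with a log2 difference of 0.69 (SE 0.128, FDR 0.00232). The low genes grin2cb and grm1b passed as well, at -1.44 (SE 0.373) and -2.28 (SE 0.555), the latter from 4 counts in each control of batch 1. The groups did not overlap for 9 members (12.2% of all genes).

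Without replicate 6 of the batch 2 controls 11 members passed (15.9%), 1 higher (5.6% of all genes) and 10 lower (10.3%) in batch 1. The calls then also included grin2aa, gria1b, grm3, grin3ba and grm6a, with log2 differences of -0.65, -1.60, -1.60, -0.69 and -1.70. The transporter gene slc17a6a, at 123 to 150.2 CPM in the controls of batch 1 and 432 to 505 CPM in the other 5 controls of batch 2, lay in the same direction. The other glutamatergic markers overlapped between these controls. In batch 1 and batch 2, slc17a6b was at 212 to 223 and 211 to 253 CPM and slc17a7a at 109.7 to 119 and 95.9 to 145 CPM. The low marker slc17a7b was at 0.656 to 2.65 and 0.798 to 1.74 CPM. Exposed groups were tested only against controls of their own batch, and ranges of the other batch were given as values.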

How the data were processed

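RNA-seq libraries (stranded mRNA, paired-end reads of 50 bases) had been made from 21 pools of telencephalons. The authors deposited counts of reads per gene from STAR (genome GRCz11; annotation Ensembl release 98, per the paper's methods), without normalization; DESeq2 1.22.2 is listed in the submitters' processing notes. Column 4, the sense strand of such libraries, was used, and column 2, without regard to strand, was an alternative. Between 39.9% and 45% of reads were not assigned to a gene and were left out. How reads that match near-identical duplicates were counted is not given in the sources used here, so values of such pairs are uncertain to that extent.

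Members were matched by name, 37 through a list of gene names among the paper's supplements and 3 through the name table alone. The members and all gene lists were chosen with earlier results of these data known.

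edgeR 4.0.16 (R 4.3.3) was run within each batch with TMM factors, the filterByExpr filter and the quasi-likelihood test, and p-values were adjusted over all genes tested. SE is the standard error of a log2 fold change. CPM values are scaled by TMM factors over all 21 libraries, so a ratio of CPM can differ slightly from a fitted fold change. Interactions and the contrast of controls came from a fit of all libraries. The labels number the pools and nothing says whether pools came from separate tanks, so p-values measure the spread between these pools. In batch 2 pools with the same number deviated together (6 of 6 pairs, r 0.145 to 0.24, mean 0.184). Control and exposed pools with different numbers had r from -0.282 to 0.298. The main fits used no pairing, and the replicate block was an alternative. The fits were also run on simulated counts, without a library that stood apart and with changes larger than that of grm4. This cannot show whether shifts as small as that of grm4 would be found in these data.

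In each comparison the genes described were the 5 with the smallest p, the highest gene of each class by mean CPM over the 9 controls (transcript lengths were not used, in place of the level per length first planned), gria1a, grin3a and grm4. The genes gria1a, grin3a and grm4 were included because earlier results of these data list them. Other genes named were chosen after their values were seen. Alternatives were RLE factors, no filter, at least 10 counts in every library, unstranded counts, DESeq2 1.42.0, a replicate block, a fit of 2 groups, a single fit of all libraries, no fold change threshold and leaving out each library.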

Additional observations from a re-analysis of the deposited data

Results flagged for a closer look

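In groups of 6 libraries, 48 sets of values (named genes and class sums) were tested for a library far from the others, of which chance picks out about 1 in 20. The 5 found were all in replicate 6 of the batch 2 controls, which had already stood apart by its correlation. The sets share the same libraries, and gria2b is part of the AMPA sum, so they are not independent. The groups of batch 1, with replicate 1 of 5 mGy/h, were not tested in this way. There gria2b was at 1270 CPM against 2109 to 2439 CPM in the other controls, grin2aa at 10.6 CPM against 28.4 to 31.9 CPM, grik3 at 3.69 CPM against 31.1 to 39.8 CPM, and the AMPA sum at 1489 CPM against 2509 to 2947 CPM. In the opposite direction, grm8b was at 68.9 CPM against 42.0 to 47.5 CPM.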

How the results depend on the processing

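Across the 38 pairs of a named gene and a comparison, 26 kept their sign in all alternatives run and 12 did not, and the cause was not tested. With the replicate block, the count of all genes passed fell from 1 to 0 in each comparison of an exposed group with its controls and of 5 with 0.5 mGy/h, and receptor genes stayed at 0; gria2b at 0.05 mGy/h was 0.016 with the block. In batch 1 pools with the same number did not deviate together (9 pairs, r -0.457 to 0.074, mean -0.14). For 0.05, 0.5 and 5 mGy/h against controls DESeq2 passed 15, 11 and 88 genes, and it passed 53 for 5 against 0.5 mGy/h. Fits of the 2 groups compared passed 0 in all 3 comparisons of batch 1, and one fit of all libraries passed 0 there and 2 at 0.05 mGy/h. At least 10 counts in every library left 0 for 0.5 mGy/h against controls and for 5 against 0.5 mGy/h. Leaving out each library gave 0 to 8 genes at 0.05 mGy/h (8 without control replicate 6), 0 to 1 at 0.5 mGy/h, 0 to 1375 at 5 mGy/h and 0 to 1185 between 5 and 0.5 mGy/h (the highest of both without replicate 1 of 5 mGy/h), and 882 to 3390 between the controls of the batches (882, 890 and 897 without 1 control of batch 1, 3390 without replicate 6 of batch 2). Receptor genes passed ranged from 0 to 2 at 5 mGy/h, 0 to 2 between 5 and 0.5 mGy/h and 4 to 11 between controls.

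When each library was left out, the log2 fold change of gria2b ranged, for the lowest, middle and highest dose rate, from -0.12 to 0.036, from -0.011 to 0.068 and from -0.076 to 0.072, and at the highest it was also 0.0094 with at least 10 counts and 0.006 with unstranded counts. That of grid1b ranged from -0.04 to 0.14, from -0.013 to 0.049 and from -0.17 to 0.043, and that of grm2b from -0.25 to 0.013, from -0.20 to 0.13 and from -0.25 to 0.19, in the same order. For grm5a at 0.5 mGy/h it ranged from -0.098 to 0.0069. For gria1a the range at 0.5 mGy/h was -1.58 to 3.10, and that at 5 mGy/h was -1.54 to 3.21. With unstranded counts the AMPA sum of the batch 1 controls was 2150.3 CPM and the group III sum 179.9 CPM. At the depth reached, gria1a and grm1b were limited by counts of 3 or fewer in some libraries.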
